A study of Oncorhynchus mykiss with 12 samples.

Results

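The genes described here are annotated as conjugation enzymes and were measured in the rainbow trout (Oncorhynchus mykiss) liver. They form 3 classes: glutathione S-transferases (GST), UDP-glucuronosyltransferases (UGT) and sulfotransferases (SULT). A gene was taken when its description in the deposited RNA-seq table began with one of those enzyme names, with the microsomal GSTs and the cytosolic SULTs included. That gave 71 of the 42128 rows of the table, of which 26 were GST, 26 were UGT and 19 were SULT genes. The rule itself uses descriptions and no measured values. Of the 71 genes, 55 had a mean level of at least 0.5 FPKM (fragments scaled by transcript length and library size) and were tested, 23 GST, 21 UGT and 11 SULT.

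Conjugation is the step in which a cell attaches a water-soluble group to a foreign or endogenous compound, and the liver is its main site. GSTs add the tripeptide glutathione to electrophiles, and the microsomal forms are membrane proteins. UGTs sit in the endoplasmic reticulum and transfer glucuronic acid from UDP-glucuronate, and cytosolic SULTs transfer a sulfonate group from the donor PAPS (3'-phosphoadenosine 5'-phosphosulfate). Bilirubin, steroids, bile acids and thyroid hormones are among the endogenous substrates of UGTs and SULTs, and transporters of the ABCC and ABCG families carry conjugates out of the cell.

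The samples were livers of wild-type trout, either controls or fish held for 1 month under moderate hypoxia, which the labels give as 4.5 ± 0.1 mg/L of dissolved oxygen. There were 3 RNA-seq libraries of each. Age, sex and the oxygen level of the control water are not stated in the labels, and fish kept under hypoxia for 12 h were not analysed here. Whether a replicate was a fish of its own is not stated, so the p-values reflect the spread among these samples alone, which may be technical. Library totals ran from 19060468 to 23152833 counts, of which the 71 genes took 0.344% to 0.385%. Control replicate 1 stood apart from the other control libraries, at -9.57 on the first principal component (44.1% of the variance) against -41.8 and -38.6, with the hypoxia libraries at 24.9 to 33.2. Hepatocyte markers were abundant (summed level 77660 to 80560 FPKM in control and 77920 to 86460 in hypoxia), as the tissue label says. Each fold change is given on the log2 scale, hypoxia over control, as fitted by edgeR's quasi-likelihood test, with a standard error (SE) and a p-value adjusted by Benjamini-Hochberg over all 19365 genes tested, and a gene passed the test at an adjusted p under 0.05.

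The comparison of the 2 groups asked what a month of low oxygen does to liver transcripts. In the conjugation genes, 6 of the 55 tested rose and 0 fell: 2 GST genes, 1 UGT gene and 3 SULT genes, each by 1.5- to 1.7-fold. Over all genes tested, 7.22% passed the test, 3.83% as higher and 3.39% as lower, against 10.9% and 0 of the tested conjugation genes. At an unadjusted p under 0.05 there were 6 higher and 0 lower GST genes, 3 higher and 6 lower UGT genes, and 4 higher and 0 lower SULT genes, where 12.1% of all genes were higher and 11.6% lower. DESeq2 called 9 higher and 1 lower of the 55, beside 4.91% and 4.34% of all genes. By class, 8.7% of the tested GST genes, 4.76% of the UGT genes and 27.3% of the SULT genes rose. In bulk tissue, fewer cells of a type and less RNA per cell cannot be told apart, and this holds for every change described.

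The classes differed in how much RNA they held. Summed over its genes, the GST class was at 1117, 1155 and 1023 FPKM in control replicates 1 to 3 and at 1357, 1162 and 1275 FPKM in hypoxia. The UGT class was at 816, 766 and 796.5 FPKM in control and at 732, 691 and 737 FPKM in hypoxia. The SULT class was at 189, 158 and 123 FPKM in control and at 227, 203 and 227 FPKM in hypoxia. The groups did not overlap in any class: every hypoxia library was above every control library for GST and SULT, and below every control library for UGT. Within UGT, the 20 UGT2 genes overlapped in sum between groups, and so did the 1 UGT1 gene. Only the 5 UGT genes with no isoform number, all with the symbol ugt3, did not overlap in sum. LOC110501489 held 77.8% of their level. These 5 genes entered the class by description, and which sugar they transfer was not tested. For GST the gap was narrow, since control replicate 2 and hypoxia replicate 2 lay close together. Within GST, the microsomal genes overlapped in sum, at 378 to 426 FPKM in control and 419 to 515 FPKM in hypoxia. The pi, theta, kappa and C-terminal domain genes overlapped in sum too, and so did the 1 gene each of mu, omega and lancl1. The 2 GST 3 genes in sum did not, nor did the 1 gene each of GST A, rho and zeta. Of all genes tested, 13.9% did not overlap as higher and 13.1% as lower. The mean went from 1098 ± 68.1 to 1265 ± 98.3 FPKM for GST (SD, n = 3), a ratio of 1.15. It went from 793 ± 25.7 to 719.7 ± 24.97 FPKM for UGT, a ratio of 0.908, and from 156 ± 33.2 to 219 ± 13.8 FPKM for SULT, a ratio of 1.40. Summed over all 71 genes, the groups overlapped, at 1942 to 2122 FPKM in control and 2056 to 2316 FPKM in hypoxia.

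**Figure D1:**
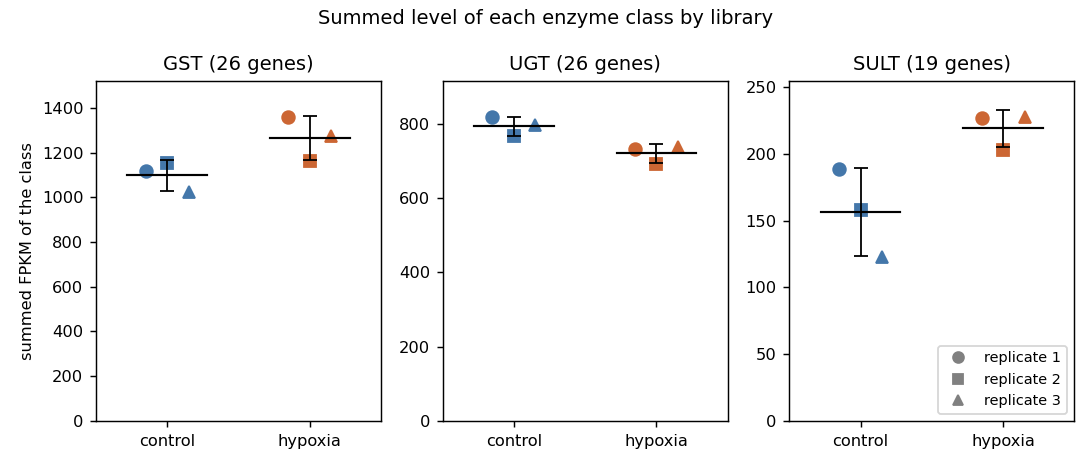
Summed level of each enzyme class (FPKM, y axis from 0) in the 3 control and 3 hypoxia libraries. Points are libraries, horizontal lines are group means and bars are SD; the GST and SULT sums of the hypoxia libraries lie above those of control, and the UGT sums lie below.

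The class sums can also be set against each other within a library. The ratio of summed GST to summed UGT level was 1.37, 1.51 and 1.28 in control and 1.86, 1.68 and 1.73 in hypoxia. The ratio of SULT to UGT was 0.231, 0.206 and 0.154 in control and 0.310, 0.294 and 0.308 in hypoxia. Given the sums above, neither of these ratios could overlap between groups, so they add nothing to the sums. The ratio of SULT to GST did overlap, at 0.120 to 0.169 in control and 0.167 to 0.178 in hypoxia. No test was made of these sums, so the differences between the classes are a description.

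Gene by gene, the directions leaned the same way as the sums. The fitted fold change was above 0 in 18 of 23 GST genes (78.3%), in 7 of 21 UGT genes (33.3%) and in 8 of 11 SULT genes (72.7%), against 49.5% of all genes tested. The 18 GST genes include gstcd LOC110497310 (0.21), described as a GST C-terminal domain gene, and lancl1 LOC110527090 (0.22). Both entered the class by description alone. The median log2 fold change was 0.21 for GST, -0.16 for UGT and 0.25 for SULT, beside -0.0046 for all genes. The SULT median rests on few genes and was 0.11 with no filter on low levels and 0.61 at a mean of at least 1 FPKM. Of the 55 genes, 49 did not pass the test. Groups did not overlap in FPKM in 15 genes that were higher and 5 that were lower under hypoxia, or 27.3% and 9.09% of the 55, where 13.9% and 13.1% of all genes tested did so. These were 7 higher and 3 lower GST genes, 4 higher and 1 lower UGT genes, and 4 higher and 1 lower SULT genes. The differences between the classes in these shares were not tested.

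**Figure D2:**
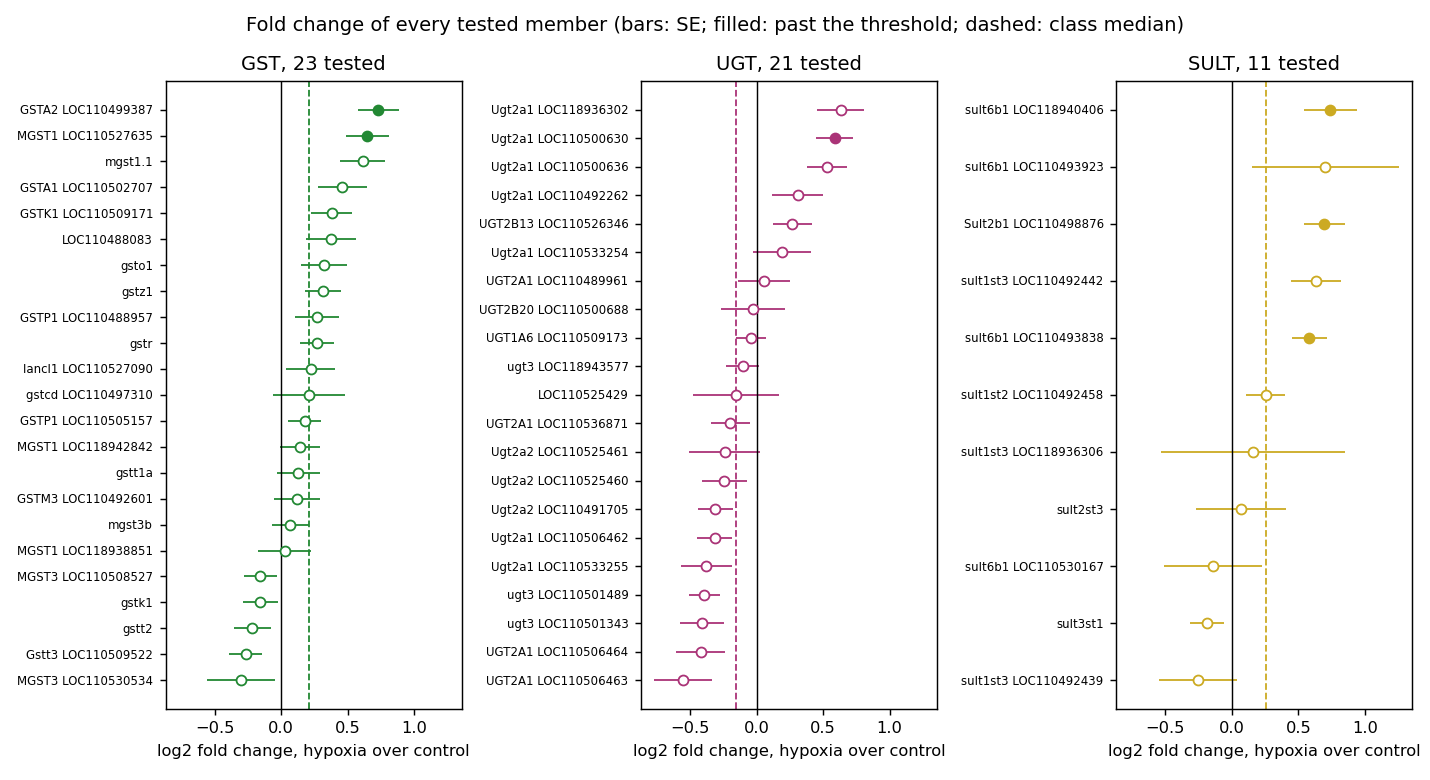
Log2 fold change (hypoxia over control, x axis) of each of the 55 tested genes by class, with SE as bars, filled symbols for genes past the test and a dashed line at the class median. Most GST and SULT genes lie to the right of 0 and most UGT genes to the left, and all filled symbols lie to the right.

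Levels were spread unevenly over the members of each class. At a mean of 50 FPKM or more there were 9 GST and 5 UGT genes and no SULT gene. The median gene stood at 26.8 FPKM in GST, 14.3 in UGT and 0.834 in SULT, where 8 of 19 genes were under 0.5 FPKM. The 4 most abundant genes held 46.3% of the GST, 56.8% of the UGT and 79.5% of the SULT level. Of the 16 genes that were not tested, 6 had a count of 0 in all libraries, which allows up to 0.157 CPM (counts scaled by library size alone) in the shallowest library (3 counts, counting error only). They were mgst2, LOC110526348 and LOC110535845 of UGT2, and sult4a1, LOC110492441 and LOC110502577 of the SULTs. In mammals SULT4A1 is known as a brain form.

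Among the GSTs, the genes that rose were a GST 3 gene and a microsomal GST 1 gene. GST 3 LOC110499387 carries the symbol GSTA2, the name of an alpha class enzyme in mammals. It was at 10.5, 11.1 and 9.56 FPKM in control and 20.5, 17.6 and 14.3 FPKM in hypoxia. Every hypoxia library was higher, and the 3 spread more widely than the controls. The log2 fold change was 0.73 (SE 0.15, adjusted p = 0.0202, edgeR). The call ended without control replicate 3 (adjusted p = 0.0659), hypoxia replicate 1 (0.0884) or hypoxia replicate 2 (0.0759). The other GST 3 gene, LOC110502707 (GSTA1), was at 11.2, 8.79 and 10.5 FPKM in control and 17.7, 14.1 and 10.7 FPKM in hypoxia. Its groups overlapped, and it did not pass (log2 fold change 0.46, adjusted p = 0.156, edgeR).

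Microsomal GST 1 is a membrane enzyme that in mammals also reduces lipid hydroperoxides. Of its 4 genes, LOC110527635 (MGST1) rose, from 26.3, 26.9 and 21.4 FPKM in control to 41.0, 32.8 and 34.8 FPKM in hypoxia. The groups did not overlap, with control replicate 3 lowest. The log2 fold change was 0.65 (SE 0.16, adjusted p = 0.0377, edgeR). The FPKM of this gene per count varied up to 1.32-fold between libraries, so its levels and its counts do not give the same fold. Its call remained without hypoxia replicate 3 (adjusted p = 0.044) and ended when control replicate 1 (0.0568), 2 (0.0669) or 3 (0.103) or hypoxia replicate 1 (0.149) or 2 (0.0963) was left out. It also ended in limma on log2(FPKM + 0.5), at an adjusted p of 0.07. mgst1.1 lay just outside the threshold, at 74.8, 78.7 and 91.1 FPKM in control and 151, 118 and 102 FPKM in hypoxia. Its groups did not overlap either (log2 fold change 0.61, SE 0.17, adjusted p = 0.0517, edgeR). The remaining microsomal GST 1 genes overlapped, LOC118942842 with a log2 fold change of 0.14 and LOC118938851 with 0.03.

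The most abundant GST was the pi class gene LOC110488957 (GSTP1), which stood at rank 352 of all rows by level. It was at 213, 201 and 137 FPKM in control and 239, 185 and 250.4 FPKM in hypoxia. Control replicate 3 was low and the groups overlapped (log2 fold change 0.27, adjusted p = 0.35, edgeR). mgst3b, a microsomal GST 3, was at 114, 132 and 117 FPKM in control and 151, 120.3 and 115 FPKM in hypoxia. Only hypoxia replicate 1 was outside the control range, and the log2 fold change was 0.07 (adjusted p = 0.814, edgeR). gstt1a, of the theta class, was at 93.2, 118 and 117 FPKM in control and 127, 133 and 105 FPKM in hypoxia, again with overlap (log2 fold change 0.13, adjusted p = 0.681, edgeR). Without control replicate 1 the log2 fold changes of both changed sign, to -0.00096 for mgst3b and -0.0018 for gstt1a, and without hypoxia replicate 1 that of mgst3b was -0.035.

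The other GST genes with groups that did not overlap had smaller differences, none past the test. On the higher side, the GST A gene LOC110488083 had a log2 fold change of 0.37, gstz1 (zeta), the maleylacetoacetate isomerase of tyrosine breakdown, of 0.31, gstr (rho), a class known from fish, of 0.27, and the pi class gene LOC110505157 of 0.18. On the lower side were gstk1 (kappa), with -0.16, the theta gene LOC110509522, with -0.27, and the microsomal GST 3 gene LOC110508527, with -0.16. The 23 tested GST genes ranged from -0.30 to 0.73 in log2 fold change.

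**Figure D3:**
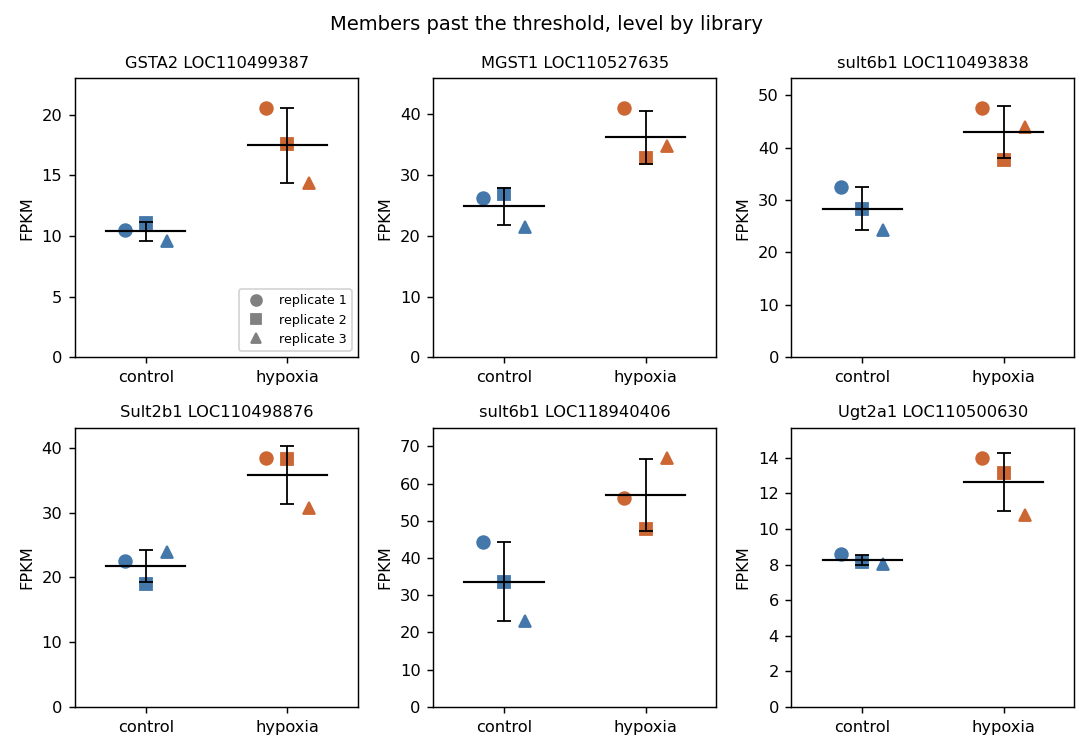
Level in FPKM (y axes from 0) of the 6 conjugation genes past the test in each control and hypoxia library, with group means as lines and SD as bars. In all 6 panels every hypoxia library lies above every control library, with the widest control spread in sult6b1 LOC118940406.

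Among the UGTs, 1 gene rose, and the most abundant gene was lower without passing the test. LOC110500630 (symbol Ugt2a1, described as UGT 2C1) was at 8.58, 8.14 and 8.03 FPKM in control and 14.0, 13.1 and 10.8 FPKM in hypoxia. The controls lay close together and every hypoxia library was higher. The log2 fold change was 0.59 (SE 0.14, adjusted p = 0.0311, edgeR). The call remained without control replicate 1 or hypoxia replicate 3 and ended without control replicate 2 (adjusted p = 0.0839) or 3 (0.0842) and without hypoxia replicate 1 (0.121) or 2 (0.11). The UGT2 family is known in mammals for glucuronidation of steroids and bile acids. A pair of UGT 2C1 genes lay just outside the threshold. LOC110500636 was at 19.4, 19.0 and 14.1 FPKM in control and 23.3, 24.7 and 28.7 FPKM in hypoxia, and LOC118936302 at 6.004, 3.67 and 3.84 FPKM in control and 6.93, 6.60 and 7.80 FPKM in hypoxia. The groups of both did not overlap, with log2 fold changes of 0.53 (adjusted p = 0.0531, edgeR) and 0.63 (adjusted p = 0.0529).

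The gene LOC110501489, with the symbol ugt3 and no isoform number in its description, held 26.7% of the UGT level. It was at 238, 218 and 227 FPKM in control and 173, 169 and 187 FPKM in hypoxia. Every hypoxia library was lower and replicates lay close together. The log2 fold change was -0.39 (SE 0.12), and the adjusted p of 0.0697 (edgeR) missed the threshold, while DESeq2 gave 0.0324. Together the 5 UGT genes with no isoform number were at 303, 286 and 281 FPKM in control and 223, 219 and 244 FPKM in hypoxia, a ratio of 0.788. Their mean went from 290.0 to 229 FPKM, of the 793 to 719.7 FPKM of the class. The 20 UGT2 genes overlapped in sum, at 425 to 460.2 FPKM in control and 415 to 447 FPKM in hypoxia. The UGT1 gene LOC110509173, a family known in mammals for bilirubin and phenols, overlapped too, at 54.5 to 63.9 and 56.9 to 61.5 FPKM.

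The other abundant UGTs overlapped between groups. LOC110536871 (UGT2A1) was at 80.1, 72.0 and 96.1 FPKM in control and 79.6, 69.2 and 72.3 FPKM in hypoxia, with a log2 fold change of -0.20 (adjusted p = 0.449, edgeR). LOC110491705 (Ugt2a2) was at 93.2, 80.5 and 73.1 FPKM in control and 60.5, 67.7 and 73.3 FPKM in hypoxia. Only hypoxia replicate 3 reached the control range (log2 fold change -0.31, adjusted p = 0.188, edgeR). LOC110526346 (UGT2B13) went the other way, from 67.1, 57.2 and 77.0 FPKM to 92.5, 78.4 and 76.1 FPKM (log2 fold change 0.27, adjusted p = 0.3, edgeR).

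Among the SULTs, 3 genes rose. LOC110498876 (Sult2b1) carries the name of an enzyme that in mammals sulfonates cholesterol and other hydroxysteroids. It was at 22.5, 19.0 and 23.9 FPKM in control and 38.4, 38.3 and 30.7 FPKM in hypoxia, with no overlap. The log2 fold change was 0.70 (SE 0.15, adjusted p = 0.0235, edgeR). The call ended without control replicate 2 (adjusted p = 0.083), hypoxia replicate 1 (0.0903) or hypoxia replicate 2 (0.0905). It held 97.6% of the level of the 4 SULT2 genes, of which LOC110526310 and LOC110526311 had at most 3 counts in any library.

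Both abundant SULT6 genes rose. LOC110493838 (sult6b1) was at 32.5, 28.2 and 24.3 FPKM in control and 47.5, 37.6 and 43.9 FPKM in hypoxia. LOC118940406 (sult6b1), the most abundant SULT, was at 44.4, 33.6 and 23.0 FPKM in control and 56.1, 47.7 and 66.9 FPKM in hypoxia. Neither overlapped between groups, and in both control replicate 1 was the highest and control replicate 3 the lowest control. The log2 fold changes were 0.58 (SE 0.13, adjusted p = 0.0268, edgeR) and 0.74 (SE 0.20, adjusted p = 0.0458, edgeR). Both calls rested on nearly every library and remained only without control replicate 1. With control replicate 2 or 3 left out, LOC110493838 had an adjusted p of 0.0769 or 0.0883 (edgeR), and with hypoxia replicate 1, 2 or 3 left out, of 0.108, 0.0615 or 0.0733. LOC118940406 in the same order had 0.108, 0.11, 0.118, 0.079 and 0.151. In limma on log2(FPKM + 0.5) both calls ended, at an adjusted p of 0.0571 and 0.089. Of the other SULT6 genes, LOC110493923 (0.794 to 4.37 FPKM) and LOC110530167 (0.64 to 1.24 FPKM) overlapped, and LOC110502577 had no count.

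The 6 SULT1 genes overlapped in sum, at 33.6 to 72.0 FPKM in control and 61.6 to 69.4 FPKM in hypoxia. SULT1 enzymes are known in mammals and fish for phenols and thyroid hormones. The most abundant, LOC110492458 (sult1st2), was at 41.3, 38.8 and 27.1 FPKM in control and 45.9, 37.4 and 46.6 FPKM in hypoxia (log2 fold change 0.25, adjusted p = 0.335, edgeR). LOC118936306 (sult1st3) was at 23.2, 16.4 and 0.723 FPKM in control and 14.6, 16.3 and 13.1 FPKM in hypoxia. Control replicate 3 was far below the other 5 libraries in that gene, and the SE of the log2 fold change of 0.16 was 0.69. Without this gene the summed SULT level still did not overlap, with a ratio of 1.43. LOC110492442 (sult1st3) lay outside the threshold with no overlap (3.52 to 6.24 and 7.005 to 8.15 FPKM, log2 fold change 0.63, adjusted p = 0.0687, edgeR). sult3st1 was lower with no overlap, at 13.3 to 14.1 and 11.1 to 12.4 FPKM, and did not pass (log2 fold change -0.19, adjusted p = 0.409).

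The number of conjugation genes called depended on single libraries. In edgeR, leaving out control replicate 1 gave 9 (8 higher, 1 lower), control replicate 2 gave 1, control replicate 3 gave 1, hypoxia replicate 1 or 2 gave 0, and hypoxia replicate 3 gave 4. The share of all genes called as higher was, in the same order of libraries, 5.84%, 1.38%, 1.37%, 1.21%, 1.58% and 1.18%, and the share called as lower was 5.45%, 1.06%, 1.19%, 0.656%, 0.862% and 1.05%. At an unadjusted p under 0.05, 11 genes were higher and 3 lower without hypoxia replicate 1, and 12 higher and 2 lower without hypoxia replicate 2. Control replicate 3 was the lowest library in 17 of the 55 genes (30.9%, against 23.4% of all genes), and hypoxia replicate 1 the highest in 16 (29.1%, against 21.8%). By class, control replicate 3 was the lowest in 34.8% of the tested GST, 19.0% of the UGT and 45.5% of the SULT genes. Hypoxia replicate 1 was the highest in 34.8%, 19.0% and 36.4%. The 1 lower call without control replicate 1 was the UGT 2C1 gene LOC110533255, named here after its value was seen.

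**Figure D4:**
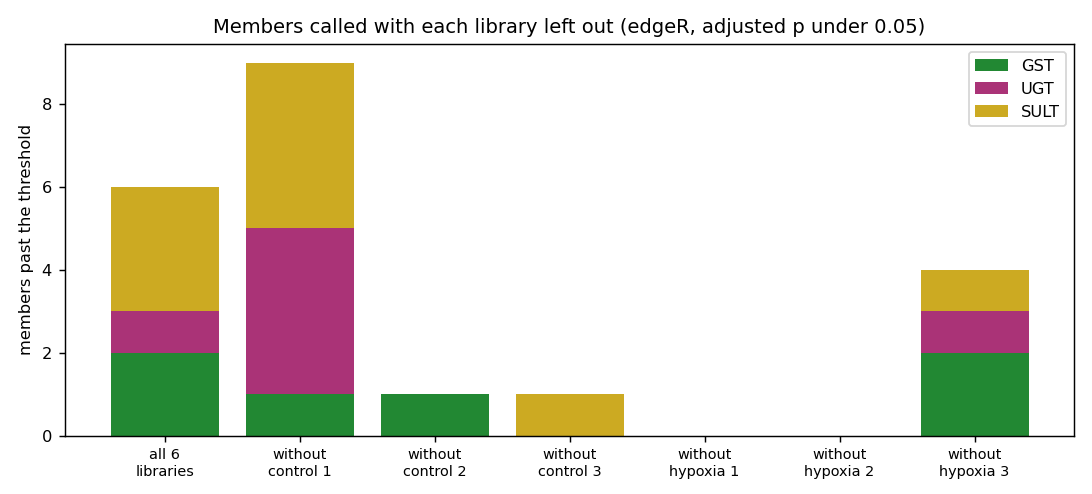
Number of conjugation genes past the edgeR test (y axis) with all 6 libraries and with each library left out in turn, stacked by class. The count runs from 0 without hypoxia replicate 1 or 2 to 9 without control replicate 1.

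Conjugation genes often lie beside each other. In the gene order of assembly USDA_OmykA_1.1, 28 of the 71 genes sat in 11 arrays of the same class with at most 2 other genes between neighbours, 15 of 26 UGT genes, 7 of 19 SULT genes and 6 of 26 GST genes. The microsomal GST 1 genes formed 2 pairs, with these log2 fold changes: mgst1.1 (0.61) beside LOC118938851 (0.03), and LOC110527635 (0.65) beside LOC118942842 (0.14). The UGT 2C1 genes LOC110500636 (0.53) and LOC110500630 (0.59) lay together and were alike. Another trio of UGT 2C1 genes, LOC110506462, LOC110506463 and LOC110506464, had values of the opposite sign (-0.32, -0.55 and -0.42), none past the test. LOC110506463 was at 10.4, 7.49 and 11.7 FPKM in control and 5.94, 8.65 and 5.83 FPKM in hypoxia, with overlap through hypoxia replicate 2. The level ratio of neighbours was compared in 11 pairs by an exact two-sided permutation test over the libraries, which cannot go below p = 0.1, so that no pair could have passed whatever its values. All 11 pairs overlapped between groups (exact p-values of 0.2 to 0.9, adjusted 0.786 to 0.9), and whether neighbours changed differently could not be tested with 3 libraries a group. Neighbouring copies can be near-identical, and reads shared between them make the values of single copies uncertain.

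**Figure D5:**
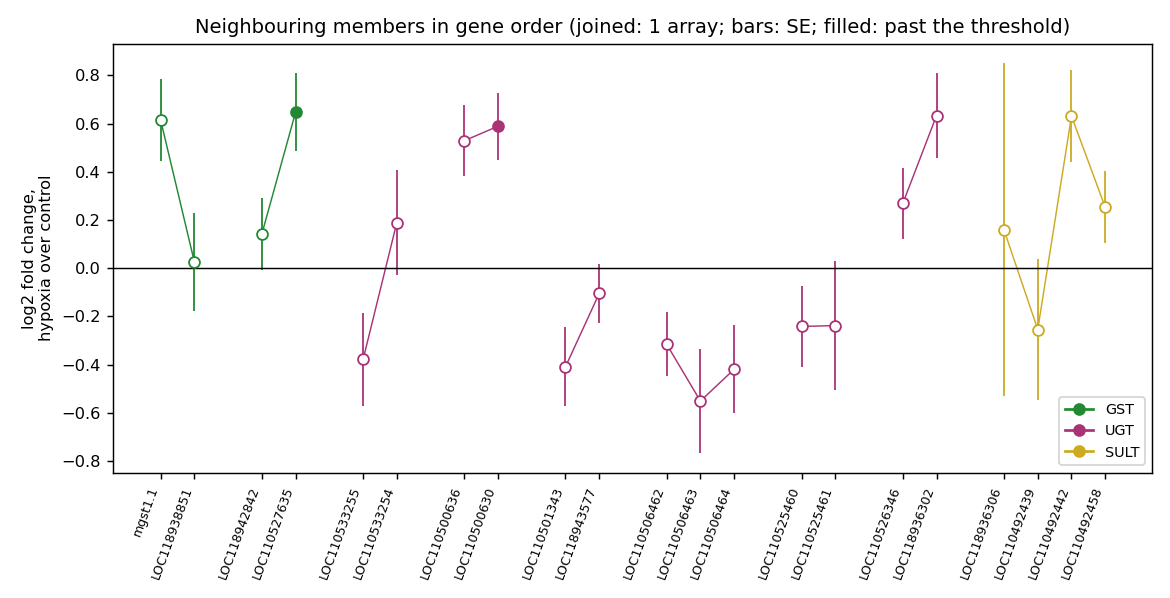
Log2 fold change (hypoxia over control, y axis) with SE of tested genes that lie beside another tested gene of their class, in gene order and joined within an array. Filled symbols mark genes past the test; the trio LOC110506462 to LOC110506464 lies below 0, and the pair LOC110500636 and LOC110500630 lies above it.

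The genes that supply the donors and export the products were looked at in 4 lists. For these and the lists after them, the share over all genes tested was 3.83% higher and 3.39% lower in edgeR. It was 12.1% and 11.6% at an unadjusted p under 0.05, and 4.91% and 4.34% in DESeq2. Conjugate export genes fell in 3 of 19 cases and rose in none (0 higher and 8 lower at an unadjusted p under 0.05, 0 and 5 in DESeq2), with a median log2 fold change of -0.33. LOC110516197 (multidrug resistance-associated protein 9) was at 14.1, 17.8 and 14.1 FPKM in control and 10.6, 10.6 and 9.46 FPKM in hypoxia (log2 fold change -0.73, SE 0.16, adjusted p = 0.0217, edgeR). Its paralogue LOC110511555 was at 12.0, 11.5 and 11.3 FPKM in control and 8.89, 7.72 and 8.99 FPKM in hypoxia (-0.54, SE 0.12, adjusted p = 0.024). The groups of both did not overlap. Neither is an established exporter of conjugates, unlike the product of wu:fb13g09, multidrug resistance-associated protein 5, known in mammals to carry cyclic nucleotides and glutathione conjugates. That gene was at 1.28, 1.01 and 1.15 FPKM in control and 0.583, 0.813 and 0.697 FPKM in hypoxia (-0.71, SE 0.19, adjusted p = 0.0471, edgeR). The summed level of the 30 export genes, the protein 9 genes included, was 99.9 to 112 FPKM in control and 83.1 to 90.5 FPKM in hypoxia, with no overlap. No sum was made without the protein 9 genes. The most abundant gene of the export list carries the symbol abcc2 and did not pass the test. The sums of the other lists overlapped. In control and hypoxia they were 273 to 317 and 257 to 304 FPKM for glutathione supply and turnover. They were 222 to 235 and 220 to 251 FPKM for UDP-glucuronate, and 62.6 to 68.2 and 61.2 to 68.1 FPKM for PAPS and sulfate. The calls of both protein 9 genes remained without control replicate 1 and ended without any other library, with adjusted p-values up to 0.0868 and 0.0918, and that of wu:fb13g09 ended in each case (0.0507 to 0.167).

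Of the glutathione supply and turnover genes, 1 of 22 rose and 1 fell, both annotated as cystathionine beta-synthase, which feeds homocysteine towards cysteine. The abundant copy, cbs, was at 43.1, 43.2 and 64.9 FPKM in control and 19.8, 24.0 and 35.4 FPKM in hypoxia (log2 fold change -0.82, SE 0.20, adjusted p = 0.0315, edgeR). The FPKM of cbs per count varied between libraries, with 1049 counts in hypoxia replicate 1 and 1264 in hypoxia replicate 3. Its levels and its counts therefore do not give the same fold. The minor copy LOC110520495 was at 0.558, 0.277 and 0.167 FPKM in control and 0.991, 1.23 and 1.56 FPKM in hypoxia (1.92, SE 0.36, adjusted p = 0.0133, edgeR). The copies thus went opposite ways without overlap. The call of LOC110520495 ended without hypoxia replicate 3 (0.0575), and that of cbs ended without each library other than control replicate 1 (0.0545 to 0.125). The list had a median of 0.21, with 5 higher and 4 lower at an unadjusted p under 0.05 and 2 and 2 in DESeq2. Groups did not overlap in 6 of its genes that were higher and 2 that were lower. That was 27.3% and 9.09%, against 13.9% and 13.1% of all genes. The most abundant gene in the summed level of this list carries the symbol ANPEP.

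Of the UDP-glucuronate genes, 2 of 16 (12.5%) rose and 0 fell, beside 3.83% and 3.39% of all genes tested. At an unadjusted p under 0.05, 2 were higher and 1 lower, beside 12.1% and 11.6% of all genes, and DESeq2 gave 2 and 0. Those that rose were Ugp2 LOC118943941, which makes UDP-glucose, at 3.45 to 4.10 and 5.23 to 6.80 FPKM (log2 fold change 0.48, adjusted p = 0.0375, edgeR), and slc35b1 LOC110538649, an endoplasmic reticulum nucleotide transporter, at 1.34 to 1.96 and 2.44 to 3.16 FPKM (0.75, adjusted p = 0.0344). The slc35b1 gene entered the list by its symbol, and what it carries was not tested. For Ugp2, FPKM per count varied between libraries, so its levels and its counts do not give the same fold. Both calls ended without each library other than control replicate 1, with adjusted p-values up to 0.113 and 0.115. Of the PAPS and sulfate genes, 0 of 17 passed edgeR's test, with 3 higher and 1 lower at an unadjusted p under 0.05 and 1 higher in DESeq2. The most abundant, bpnt1, which breaks down the spent donor, was at 14.8, 15.04 and 13.3 FPKM in control and 13.9, 13.3 and 13.5 FPKM in hypoxia, with overlap.

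Regulators of conjugation genes, among them the aryl hydrocarbon receptor, Nrf2 and Keap1, passed edgeR's test in 0 of 27 cases, with 0 higher and 2 lower at an unadjusted p under 0.05 and 1 lower in DESeq2. The median log2 fold change was -0.09, and arnt2 LOC110506172, the most abundant, overlapped at 18.5 to 26.0 and 16.2 to 26.6 FPKM. Other conjugation reactions, mostly methyl and acyl transfer, gave 0 of 5 (1 higher and 1 lower unadjusted, 1 lower in DESeq2). Their most abundant gene, Comtd1 LOC110530609, was at 534, 277 and 270.0 FPKM in control and 449, 324 and 386 FPKM in hypoxia, with control replicate 1 highest. Of 14 genes listed as related enzymes, whose descriptions begin otherwise, 2 rose and 1 fell (3 higher and 1 lower unadjusted, 3 and 0 in DESeq2). Those that rose were the PTGES3 genes LOC110492374 (log2 fold change 1.19, adjusted p = 0.00697, edgeR) and LOC110532024 (0.56, adjusted p = 0.041), whose product is also the p23 cochaperone of Hsp90. Both matched by the words prostaglandin E synthase alone, and no other gene of that list rose in edgeR. UGT8 LOC110516863, which makes galactosylceramide and not a glucuronide, fell (-0.54, adjusted p = 0.0439, edgeR). The call of LOC110492374 remained without any 1 library, that of LOC110532024 only without control replicate 1 (0.0726 to 0.158 otherwise), and that of UGT8 in no case (0.0659 to 0.136) nor in DESeq2 (0.0532).

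The authors' deposited table calls 9 of the 71 genes at an adjusted p under 0.05, 8 higher and 1 lower. Over the genes tested here, 6.93% pass, 3.48% higher and 3.45% lower, at that threshold in the authors' deposited table. All 6 genes called here are among the 9. The authors' deposited table adds mgst1.1 (adjusted p 0.0159), ugt3 LOC110501489 (0.0288, lower) and UGT 2C1 LOC110500636 (0.0353), which lay just outside the threshold in edgeR.

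Markers of other cells moved between the groups. Red blood cell genes fell in 16 of 24 cases, with a summed level of 1277 to 1755 FPKM in control and 653 to 931 FPKM in hypoxia. Stellate cell and matrix genes fell in 5 of 22 cases, at 289 to 372 and 200.4 to 281 FPKM. The red blood cell count was 8 without control replicate 3 or hypoxia replicate 3, 10 without hypoxia replicate 1 or 2, and 15 or 16 otherwise. Stellate and matrix calls numbered 3 and 2 with control replicate 1 or 3 left out, 5 with hypoxia replicate 3 left out and 0 in the remaining cases, where 8 to 11 genes were lower at an unadjusted p under 0.05. Neither sum overlapped between groups, and 14 of 41 red blood cell genes and 7 of 39 stellate and matrix genes were at 0 in all libraries. Leukocyte genes (1 of 18 fell, 201 to 263 and 209 to 234 FPKM), endothelial genes (1 of 22 fell, 53.6 to 59.0 and 50.4 to 56.2 FPKM) and bile duct genes (0 of 7, 82.3 to 92.9 and 73.5 to 88.3 FPKM) overlapped in sum. So did those of exocrine pancreas (1 of 16 fell, 454 to 573 and 398 to 466 FPKM) and intestine (0 of 3, 12.6 to 16.7 and 13.8 to 20.0 FPKM). The pancreas list took most of its level from cpb2 and the endothelial list much of its own from VWA5A, which matched by name and are not markers of those cells. Gene by gene, 18 of the 22 tested genes of the endothelial list had a log2 fold change under 0. This list includes such name matches, so its counts do not describe endothelial markers alone. Of these 22 genes, 7 were lower and 2 higher at an unadjusted p under 0.05, beside 11.6% and 12.1% of all genes. The groups did not overlap in 6 that were lower (27.3%, against 13.1% of all genes) and 2 that were higher (9.09%, against 13.9%). At an unadjusted p under 0.05, 1 bile duct gene was lower and 0 intestine genes differed, and DESeq2 called 0 of either list. Among the hepatocyte genes 1 of 30 rose and 1 fell, and 19 had a log2 fold change under 0. At an unadjusted p under 0.05, 5 were higher and 8 lower, beside 12.1% and 11.6% of all genes. The groups did not overlap in 7 that were higher and 7 that were lower (23.3% each, against 13.9% and 13.1%). Without control replicate 1, 1 hepatocyte gene was called higher and 5 lower, and without any other single library 0 were called lower. The part of these markers in the conjugation results was not tested.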

How the data were processed

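Per the labels, the liver was frozen in liquid nitrogen and its RNA taken with Trizol. The deposited RNA-seq table holds raw counts per gene and FPKM values of 3 control and 3 hypoxia libraries, per the file headers, beside the authors' own comparison (log2 fold change, p-value, adjusted p-value). Groups and replicate numbers come from the labels. The submitters' processing notes list Bowtie2 2.2.8 and TopHat2 2.1.1 without saying what each did. Counting tool, strand use, annotation and genome build are not given in the sources used, so no coordinates are printed. Small RNA libraries were not used here.

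The table has 42128 rows, of which 232 are loci without a gene number. These were kept in the fit and hold 64533 to 80533 counts per library. All 71 conjugation genes matched assembly USDA_OmykA_1.1 of RefSeq, used for names and gene order. Sequences were not used here. In 3 of the 55 tested genes, FPKM per count differed by more than 1.1-fold between libraries.

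The main test was edgeR 4.0.16 (quasi-likelihood, TMM, group only, two-sided, Benjamini-Hochberg) in R 4.3.3 on the counts as deposited, for genes averaging 0.5 FPKM or more, checked on simulated counts. The SE is the absolute unshrunken log2 fold change over the square root of F. Alternatives were DESeq2 1.42.0, other size factors, other filters, limma 3.58.1 on log2(FPKM + 0.5) or log2(FPKM + 0.1), a replicate block and leaving out each library. Replicates differed beyond counting noise in each pair (chi-square over its degrees of freedom, 12.4 to 30.1). Genes named in the text are those past the threshold, the 4 of highest level per class, and up to 3 per pathway list, or the most abundant where none passed. Other genes are named for lying near the threshold, not overlapping or lying in an array, and were chosen after their values were seen. The conjugation genes and the 7 pathway and 8 marker lists were chosen with earlier results of these data known.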

Additional observations from a re-analysis of the deposited data

How the results depend on the processing

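The ratio of hypoxia to control in the class sums was recomputed without 1 library in turn. It ran from 1.11 to 1.199 for GST, 0.892 to 0.926 for UGT and 1.26 to 1.56 for SULT. Its direction could not reverse there, since the groups did not overlap in any class. CPM in place of FPKM gave 1.13, 0.895 and 1.39. Numbers of calls moved with the setting. Beside 6 conjugation genes, DESeq2 called 10 (4 of them UGT), no filter on low values 10 (3 UGT) and upper-quartile factors 9 (3 UGT). A mean FPKM of at least 1 gave 8 (2 UGT), and limma called 3 with either pseudocount (1 GST, 1 UGT, 1 SULT). In the same order, the share of all genes called was 9.25%, 5.4%, 7.17%, 8.83%, and 4.27% or 3.98%. Without 1 library in turn the number ran from 0 to 9 in all, 0 to 2 for GST, 0 to 4 for UGT and 0 to 4 for SULT. Over all genes the main fit made 1398 calls. Limma made 826 or 771 with pseudocounts of 0.5 or 0.1, and 773 or 729 of these were among the 1398. Leaving out 1 library gave 361 to 2186 calls. The 10 calls of the pathway lists became 17 in DESeq2, 16 with no filter, 2 in either limma fit (CBS LOC110520495 and PTGES3 LOC110492374) and 1 to 17 without 1 library. The median log2 fold change of SULT genes was 0.11 with no filter, 0.61 at a mean FPKM of at least 1, 0.48 and 0.55 in limma and 0.24 to 0.65 without 1 library, and that of UGT genes was -0.25 to -0.052 without 1 library. Log2 fold changes ran without 1 library from -0.035 to 0.15 for mgst3b, from -0.0018 to 0.24 for gstt1a and from -0.052 to 0.43 for Comtd1 LOC110530609. The cause of these shifts was not tested.

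Deviations of same-numbered libraries correlated at -0.05, 0.04 and -0.04, beside -0.05 to 0.08 for libraries of different number. With 3 libraries a group these values cannot show whether the libraries were paired. With the replicate number as a block, 1046 genes were called in all, among them 3 conjugation genes (1 GST, 0 UGT, 2 SULT, with 14 higher and 5 lower at an unadjusted p under 0.05) and 6 pathway genes, and the median of SULT genes was 0.58. It ended the calls of sult6b1 LOC118940406 (adjusted p = 0.0623, edgeR), MGST1 LOC110527635 (0.0567) and Ugt2a1 LOC110500630 (0.051).

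Tested conjugation genes held from 18 to 10516 counts a library, and the scaling alternatives moved the median of all genes by at most 0.024.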
